A study of Mus musculus with 45 samples.

Results

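Messenger RNA was sequenced from forelimb buds of CD1 mouse embryos of gestation day 13, cut from the embryo and kept in culture bottles. The 10 libraries described here are solvent controls of the second day of culture. The 48 h group holds 5 libraries of limbs cultured for 48 h with dimethyl sulfoxide (DMSO), and the 24 h group holds 5 libraries of limbs cultured for 24 h with DMSO. They are 10 of the 45 libraries of the series and were chosen by their labels alone, as the control libraries at these times. Another 5 libraries, DMSO controls at 3 h, are used at the end, and the cultures with BPAF are not analysed here. All limbs shared BGJb medium diluted with a salt solution and supplemented with ascorbic acid and gentamycin, and the bottles were gassed with a mix of carbon dioxide, oxygen and nitrogen. Per the labels, the forelimbs of the embryos were pooled and limbs of both sexes shared the bottles. Whether replicates came from separate litters or culture days is not stated in the labels. The p-values therefore reflect the scatter of these libraries, which may be technical in part. An excised limb has no circulation, and a bulk library mixes all its tissues, so fewer cells of a type and less RNA per cell cannot be told apart.

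The limb bud is mesenchyme under a thin surface ectoderm. Its core condenses into cartilage under SOX9, chondrocytes in the middle of each element then enlarge (hypertrophy) and make type X collagen. Osteoblasts, which depend on RUNX2 and SP7 (osterix), lay down bone matrix around and later inside the cartilage. Tendon, joint and muscle form around the skeleton in the same days, HOX genes and other patterning factors set the position and identity of each part, and the ectoderm stratifies into epidermis.

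Total counts in genes ranged from 15198736 to 25153943 reads per library. The first principal component of the log-scale values carried 38.8% of the variance and separated all 48 h libraries from all 24 h libraries. The forelimb factor Tbx5 was well above 0 in all 10 libraries (216 ± 13.1 CPM at 48 h and 276 ± 6.45 CPM at 24 h). The hindlimb factor Pitx1 was low (3.42 ± 0.899 CPM at 48 h and 3.46 ± 0.942 CPM at 24 h). Although the labels describe mixed sexes, 3 libraries (48 h replicate 3 and 24 h replicates 2 and 3) had 0.879 to 2.41 CPM (read counts scaled to library size) of Xist, the transcript of the inactive X chromosome, where the other 7 had 355 to 1088 CPM. The comparison of 48 h with 24 h was therefore recomputed without those 3 libraries. Haemoglobin messengers made up 0.0685% ± 0.0148 of reads at 48 h and 0.160% ± 0.0520 at 24 h (SD, n = 5 each), with no overlap (exact two-sided permutation test, p = 0.00794, the smallest this design allows). Messengers encoded in mitochondria made up 1.57% ± 0.111 at 48 h and 1.61% ± 0.0785 at 24 h (exact permutation test, p = 0.476).

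Of 16445 genes with enough reads to test, 2677 (16.3%) differed between 48 h and 24 h at an adjusted p under 0.05 in edgeR's quasi-likelihood test. There were 1597 genes (9.71% of those tested) higher at 48 h and 1080 (6.57%) lower, and 299 (1.82%) were higher and 59 (0.359%) lower by at least 2-fold. The median log2 difference over all tested genes was -0.01. Without the 3 libraries with almost no Xist, 820 genes (4.89%) were higher and 427 (2.54%) lower, and 1198 of those 1247 genes had also been called in the same direction with all 10 libraries. In the text, a gene rose or fell only where it passed this test over all genes. Levels are CPM scaled by the trimmed mean of M-values (TMM), given as mean ± SD (n = 5 each). Values of single libraries run from replicate 1 to 5. A log2 difference is 48 h minus 24 h, given with its standard error after the ± sign, and every adjusted p is from edgeR. Levels between genes are compared in FPKM (fragments scaled to gene length and library depth), as the authors deposited them. Where a list is given as all its genes, each was tested. Counts of gene lists are read against the 9.71% of all genes that were higher and the 6.57% that were lower, and against the median of -0.01. Where a printed count of list members that rose or fell moved by over 1.5 times without the 3 libraries with almost no Xist or without any 1 library, that value stands beside it.

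**Figure D1:**
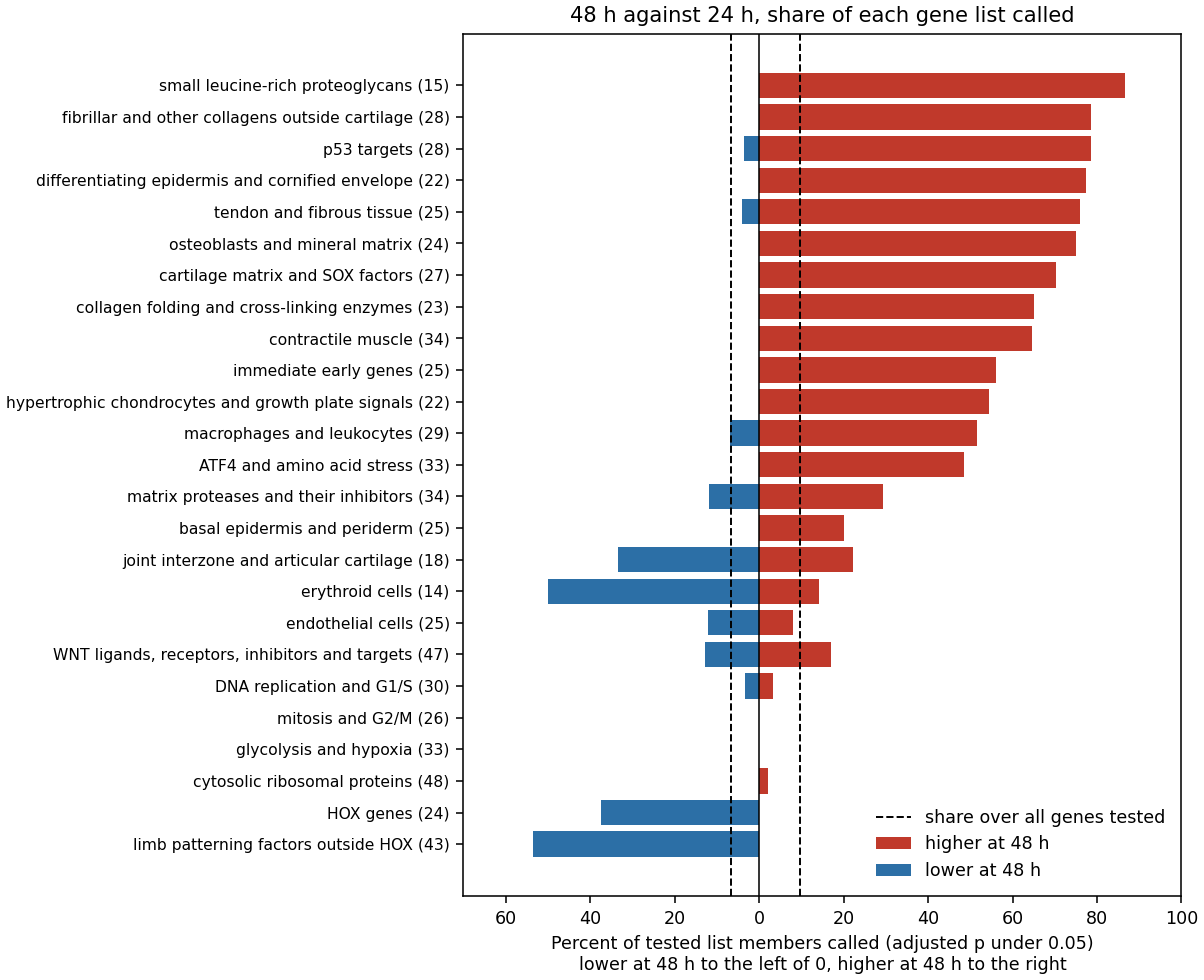
Share of the tested members of 25 gene lists called at an adjusted p under 0.05, higher at 48 h to the right of 0 and lower at 48 h to the left, with the number of tested members in brackets. Dashed lines mark 9.71% higher and 6.57% lower over all 16445 genes; matrix, bone, tendon, epidermal and p53-target lists extend far to the right, and HOX and patterning lists extend to the left.

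Genes of the mineralizing bone matrix rose. Ibsp, which encodes integrin-binding sialoprotein, a protein that nucleates mineral, rose 6.06-fold, and Dmp1, which encodes dentin matrix protein 1 of osteocytes and late osteoblasts, rose 5.09-fold. Of 28 listed osteoblast and mineral matrix genes, 24 could be tested, 18 of these rose (75.0%), the others were not called, and the median log2 difference was 0.95. The 4 that could not be tested were the osteocalcin genes Bglap, Bglap2 and Bglap3 and Mepe, each with a mean under 0.3 CPM in both groups. Dmp1, Ibsp and Spp1 lie near each other on chromosome 5 in a cluster of secreted phosphoprotein genes. The 250 bases before the RefSeq start of these genes are printed with those of the type X collagen gene Col10a1 and the collagenase gene Mmp13 because these 5 genes rose together. Capitals mark TGTGGT, the core bound by RUNX factors, searched on both strands (it reads ACCACA on the other), and the letters of a TATA box (TATAAA) on the gene's strand. They also mark TGANTCA, a motif of AP-1 factors searched on both strands. No matches overlap. The windows come from RefSeq on GRCm38.p6, all on the plus strand: Dmp1 at chr5:104202367-104202616, Ibsp at chr5:104299037-104299286, Spp1 at chr5:104434861-104435110, Col10a1 at chr10:34389731-34389980 and Mmp13 at chr9:7272264-7272513. The Ibsp window ends 116 bases inside the gene as the deposited table delimits it.
Dmp1: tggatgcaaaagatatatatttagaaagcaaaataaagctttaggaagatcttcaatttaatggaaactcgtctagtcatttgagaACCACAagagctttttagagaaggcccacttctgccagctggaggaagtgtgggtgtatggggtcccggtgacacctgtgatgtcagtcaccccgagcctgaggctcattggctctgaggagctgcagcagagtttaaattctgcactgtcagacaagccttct
Ibsp: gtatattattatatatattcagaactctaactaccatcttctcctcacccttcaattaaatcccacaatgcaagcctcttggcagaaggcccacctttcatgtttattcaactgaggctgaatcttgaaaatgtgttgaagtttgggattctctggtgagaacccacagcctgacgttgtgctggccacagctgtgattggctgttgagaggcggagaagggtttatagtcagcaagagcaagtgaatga
Spp1: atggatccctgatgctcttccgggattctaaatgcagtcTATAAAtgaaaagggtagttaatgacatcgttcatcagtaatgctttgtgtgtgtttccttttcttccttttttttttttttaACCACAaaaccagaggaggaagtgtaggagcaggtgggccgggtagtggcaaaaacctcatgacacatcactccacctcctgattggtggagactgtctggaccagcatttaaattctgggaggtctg
Col10a1: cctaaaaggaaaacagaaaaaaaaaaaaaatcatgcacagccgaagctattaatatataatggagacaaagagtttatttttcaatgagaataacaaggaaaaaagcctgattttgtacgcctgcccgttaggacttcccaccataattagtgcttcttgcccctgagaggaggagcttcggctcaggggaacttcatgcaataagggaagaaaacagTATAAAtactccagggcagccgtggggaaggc
Mmp13: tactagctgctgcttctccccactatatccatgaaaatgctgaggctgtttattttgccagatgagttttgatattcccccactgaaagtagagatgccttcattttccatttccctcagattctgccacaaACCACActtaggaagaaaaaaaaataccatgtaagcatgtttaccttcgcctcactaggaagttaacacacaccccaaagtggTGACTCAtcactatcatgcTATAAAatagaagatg
The RUNX core stands 164 to 159 bases before the start of Dmp1, 128 to 123 before Spp1 and 118 to 113 before Mmp13, each on the opposite strand. A TATA box stands 32 to 27 bases before the start of Col10a1. Over the listed genes with a window, 3 of 16 osteoblast genes (18.8%) and 4 of 18 hypertrophy genes (22.2%) held the RUNX core, against 1235 of 11719 windows of tested genes (10.5%). Spp1 counts in both lists, and the hypertrophy genes with the core include Runx3, which was not called. The core was as frequent in the inflammatory list described below (3 of 13 windows, 23.1%). A match is a stretch of letters, not a site shown to be bound.

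Ibsp (ENSMUSG00000029306, chr5:104299171-104311469 on mm10) had 694, 677, 759, 642 and 803 CPM at 48 h, against 154, 102, 141, 99.4 and 93.3 CPM at 24 h (log2 difference 2.60 ± 0.13, adjusted p = 1.32e-08). The highest 24 h library was far below every 48 h library. Dmp1 (ENSMUSG00000029307, chr5:104202613-104214102) had 5.17, 4.77, 7.96, 4.13 and 7.55 CPM at 48 h, against 0.825, 1.66, 1.99, 0.588 and 0.729 CPM at 24 h (log2 difference 2.35 ± 0.31, adjusted p = 9.02e-05). The Dmp1 groups did not overlap, and replicates 3 and 5 were the highest of the 48 h libraries. Spp1 (ENSMUSG00000029304, chr5:104435118-104441050), which encodes osteopontin, a phosphoprotein of bone and of hypertrophic cartilage, had 44.5, 25.2, 47.8, 17.4 and 38.3 CPM at 48 h, against 6.13, 15.2, 11.2, 14.5 and 13 CPM at 24 h (log2 difference 1.53 ± 0.26, adjusted p = 0.000669). Its 48 h values spread widely, with replicate 4 only a little above the highest 24 h library. Per length, Ibsp stood at 349.9 ± 33.2 FPKM at 48 h and 57.1 ± 13.4 FPKM at 24 h. Spp1 stood at 21.3 ± 7.95 FPKM at 48 h and 7.28 ± 2.19 FPKM at 24 h, and Dmp1 at 2.17 ± 0.641 FPKM at 48 h and 0.419 ± 0.226 FPKM at 24 h. Ibsp was the most abundant of the 3 at both times.

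Regulators and enzymes of bone matrix were also among the genes that rose. Sp7, the osteoblast factor osterix, had 42.5, 47.3, 41, 41.9 and 44.8 CPM at 48 h, against 27, 25.4, 22.8, 21.5 and 23.5 CPM at 24 h, with no overlap (log2 difference 0.86 ± 0.07, adjusted p = 1.76e-06). Runx2 averaged 64.8 ± 7.18 CPM at 48 h and 54.4 ± 1.69 CPM at 24 h (log2 difference 0.25 ± 0.07, adjusted p = 0.0256). This call ended without 24 h replicate 1, 2 or 3 or 48 h replicate 1, 4 or 5 (for example log2 difference 0.23, adjusted p = 0.0672, without 24 h replicate 3). Alpl, the phosphatase that frees phosphate for mineral, averaged 68.4 ± 7.07 CPM at 48 h and 29.4 ± 3.32 CPM at 24 h (log2 difference 1.22 ± 0.09, adjusted p = 2.81e-07). Ifitm5, a membrane protein gene of early mineralizing osteoblasts, averaged 16.1 ± 1.69 CPM at 48 h and 5.37 ± 0.81 CPM at 24 h (log2 difference 1.58 ± 0.13, adjusted p = 6.32e-07). Smpd3, a sphingomyelinase needed for mineralization, rose 2.3-fold (log2 difference 1.20 ± 0.07, adjusted p = 3.7e-08). Sost, which encodes sclerostin, an osteocyte inhibitor of WNT signalling, rose at a low level (2.1 ± 0.783 CPM at 48 h and 0.347 ± 0.25 CPM at 24 h; adjusted p = 0.000516). Among inhibitors of mineral, Enpp1, which makes pyrophosphate, rose (log2 difference 0.59 ± 0.08, adjusted p = 0.000102), as did Ank, which exports it (log2 difference 0.42 ± 0.09, adjusted p = 0.00471). Clec11a, whose product promotes osteogenesis, was among the 6 genes with the smallest p in the whole table (log2 difference 1.79 ± 0.10, adjusted p = 1.69e-08). It had 35.2, 41.5, 38.8, 33.1 and 39 CPM at 48 h, against 10.9, 10.7, 11.4, 8.82 and 12.2 CPM at 24 h, without overlap. Of the 6 genes tested of 10 listed for osteoclasts, 3 rose, among them the collagen-cutting protease genes Ctsk (log2 difference 0.71 ± 0.11, adjusted p = 0.000228) and Mmp9 (log2 difference 0.53 ± 0.11, adjusted p = 0.00422). Acp5, Nfatc1 and Tnfrsf11a of this list were not called. Acp5 rose without 48 h replicate 1 (log2 difference 0.50, adjusted p = 0.0477), and Nfatc1 fell without 48 h replicate 3 (log2 difference -0.23, adjusted p = 0.0167). The summed level of the list was 264 to 316 CPM at 48 h and 262 to 282 CPM at 24 h. The fusion genes Ocstamp and Dcstamp and the calcitonin receptor gene Calcr were too low to test.

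**Figure D2:**
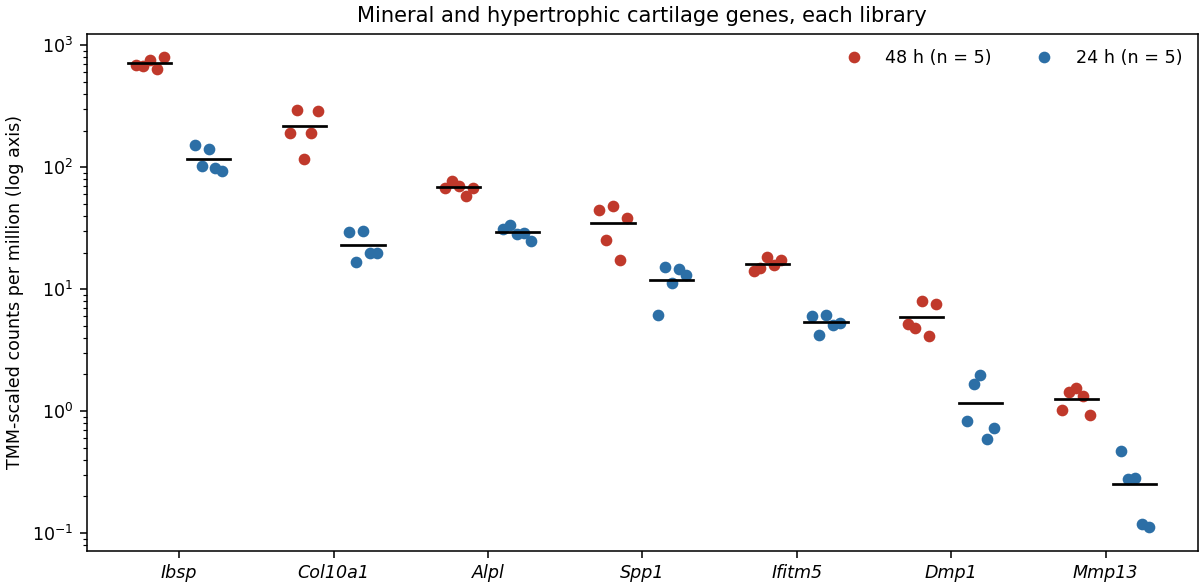
TMM-scaled CPM on a log axis of 7 mineral and hypertrophic cartilage genes in each of the 5 libraries at 48 h and the 5 at 24 h, with black bars at the means. Groups do not overlap for any of the 7; Ibsp averages 715 CPM at 48 h and 118 CPM at 24 h.

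Chondrocyte hypertrophy was marked by a 9.37-fold rise of Col10a1, whereas the earlier signal Ihh was not called. Col10a1 (ENSMUSG00000039462, chr10:34389981-34397085), the collagen of hypertrophic chondrocytes, had 190.0, 295, 118, 192 and 288 CPM at 48 h, against 29.6, 16.6, 29.8, 19.6 and 19.9 CPM at 24 h without overlap (log2 difference 3.23 ± 0.23, adjusted p = 2.71e-07). Mmp13, a collagenase of the last hypertrophic zone, had 1.01, 1.45, 1.56, 1.33 and 0.929 CPM at 48 h, against 0.471, 0.276, 0.284, 0.118 and 0.112 CPM at 24 h (log2 difference 2.27 ± 0.39, adjusted p = 0.0008). It was low at both times, and the groups did not overlap. Panx3, a channel protein of prehypertrophic and hypertrophic cells, averaged 90.2 ± 11.2 CPM at 48 h and 42.6 ± 4.07 CPM at 24 h (log2 difference 1.08 ± 0.09, adjusted p = 8e-07). Ihh, the prehypertrophic signal that paces cartilage growth, stood at 44.2 ± 6.8 CPM at 48 h and 42.1 ± 4.14 CPM at 24 h (log2 difference 0.07 ± 0.10, adjusted p = 0.69). Of all 22 listed genes, 12 rose (54.5%) and the others were not called, with a median log2 difference of 0.25. Those that rose included Bmp6, a growth factor of hypertrophic cells (log2 difference 0.66 ± 0.14, adjusted p = 0.00416), and the forkhead factor gene Foxa2 (log2 difference 1.78 ± 0.35, adjusted p = 0.00223). Foxa3 (log2 difference 0.54 ± 0.12, adjusted p = 0.00723) and Cd200 (log2 difference 0.45 ± 0.09, adjusted p = 0.00263) rose too.

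Structural genes of cartilage rose, and their master regulator Sox9 was not called. Sox9 averaged 416 ± 32.5 CPM at 48 h and 465 ± 53.1 CPM at 24 h (log2 difference -0.16 ± 0.08, adjusted p = 0.192). Of all 27 listed genes, 19 rose (70.4%), the others were not called, and the median log2 difference was 0.63. Comp (ENSMUSG00000031849, chr8:70373558-70382066), which encodes a matrix protein of cartilage and tendon, had 373, 440.5, 345, 359.6 and 407 CPM at 48 h, against 139, 131, 122, 127 and 145 CPM at 24 h. The groups did not overlap, and its p was among the 6 smallest of the table (log2 difference 1.54 ± 0.07, adjusted p = 1.32e-08). Acan, the gene of the proteoglycan aggrecan, averaged 829.7 ± 63.9 CPM at 48 h and 436 ± 33.5 CPM at 24 h (log2 difference 0.93 ± 0.07, adjusted p = 3.8e-07). Col2a1, the main cartilage collagen gene, averaged 10410.0 ± 841 CPM at 48 h and 6301 ± 480.2 CPM at 24 h (log2 difference 0.72 ± 0.07, adjusted p = 3.54e-06). Ucma, which encodes a secreted protein of maturing chondrocytes, had the largest rise of the list (log2 difference 2.31 ± 0.27, adjusted p = 2.37e-05). It had 4.97, 5.03, 5.15, 4.79 and 6.75 CPM at 48 h, against 0.766, 2.04, 0.738, 0.941 and 0.841 CPM at 24 h, without overlap. The other large rises were those of Snorc, a chondrocyte proteoglycan gene (log2 difference 1.36 ± 0.13, adjusted p = 5.13e-06), Epyc, which encodes epiphycan (log2 difference 1.04 ± 0.15, adjusted p = 0.000244), and Col11a2 (log2 difference 1.00 ± 0.08, adjusted p = 5.16e-07). Summed over the list, cartilage transcripts amounted to 22050.0 to 27200.0 CPM at 48 h and 14880.0 to 17760.0 CPM at 24 h.

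Collagens outside cartilage, the enzymes that fold and join them, and the small proteoglycans that coat their fibrils rose together. Of all 28 listed genes for collagens, 22 rose (78.6%), with a median log2 difference of 0.47. Of the 23 genes tested of 24 listed for folding and cross-linking, 15 rose (65.2%; median 0.37). Of all 15 listed genes for small leucine-rich proteoglycans, 13 rose (86.7%; median 0.59). The other members of the 3 lists were not called, except that 1 folding gene fell without 24 h replicate 4. Col1a1 of type I collagen, the main protein of bone and tendon, had 6750.0, 6888, 8612, 6276 and 7278 CPM at 48 h, against 2730.0, 2642, 2659, 2540.0 and 2656 CPM at 24 h. The 24 h libraries lay within a narrow band and the 48 h libraries stood clear above it, with replicate 3 highest (log2 difference 1.44 ± 0.07, adjusted p = 1.4e-08). Its partner chain Col1a2 averaged 4872 ± 609 CPM at 48 h and 2350.0 ± 38.5 CPM at 24 h (log2 difference 1.05 ± 0.07, adjusted p = 1.76e-07). Sparc, a collagen-binding protein gene of bone matrix, averaged 1553 ± 94.8 CPM at 48 h and 731 ± 43.6 CPM at 24 h (log2 difference 1.09 ± 0.06, adjusted p = 3.19e-08). Per length, Col1a1 stood at 1104 ± 141 FPKM at 48 h and 403 ± 11.1 FPKM at 24 h. Minor collagens moved as well: Col22a1, of tissue junctions, had 63.5, 60.9, 74.6, 55.3 and 63.2 CPM at 48 h, against 21.6, 19.2, 21.9, 19.2 and 12.4 CPM at 24 h (log2 difference 1.75 ± 0.12, adjusted p = 2.58e-07). Col5a3 had 25.1, 18.5, 7.78, 11.6 and 10.7 CPM at 48 h, against 2.71, 1.88, 2.44, 3.41 and 2.86 CPM at 24 h (log2 difference 2.47 ± 0.28, adjusted p = 2.41e-05). Neither overlapped between times, and for Col5a3 48 h replicates 1 and 2 were highest. Of the cross-linking lysyl oxidases, Loxl4 rose 3.85-fold (log2 difference 1.94 ± 0.14, adjusted p = 2.2e-07) and Lox 1.34-fold (log2 difference 0.43 ± 0.09, adjusted p = 0.0038). Pcolce and Pcolce2, enhancers of procollagen cleavage, both rose (log2 difference 0.97 ± 0.07, adjusted p = 4.6e-07 for Pcolce and log2 difference 0.98 ± 0.06, adjusted p = 6.91e-08 for Pcolce2). In the proteoglycan group, Bgn, which encodes biglycan, averaged 782 ± 43.4 CPM at 48 h and 364 ± 29.1 CPM at 24 h (log2 difference 1.10 ± 0.07, adjusted p = 3.7e-08). Aspn, which encodes asporin, averaged 184 ± 12.4 CPM at 48 h and 94 ± 2.71 CPM at 24 h (log2 difference 0.97 ± 0.06, adjusted p = 3.7e-08). Dcn, which encodes decorin, averaged 153 ± 14.8 CPM at 48 h and 108 ± 13.1 CPM at 24 h (log2 difference 0.50 ± 0.09, adjusted p = 0.000823).

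Matrix proteases and inhibitors moved both ways. Of the 34 genes tested of 39 listed, 10 rose (29.4%) and 4 fell (11.8%), with a median log2 difference of 0.11; without the 3 libraries with almost no Xist, 6 rose. Timp1, an inhibitor of metalloproteinases, had 49, 35.2, 23.9, 16.8 and 17.1 CPM at 48 h, against 6.25, 6.86, 8.12, 4.88 and 7.9 CPM at 24 h (log2 difference 2.06 ± 0.27, adjusted p = 7.2e-05). All 48 h libraries were above all 24 h libraries, and 48 h replicate 1 was highest. Plau, the urokinase gene (log2 difference 0.84 ± 0.15, adjusted p = 0.00101), and its receptor gene Plaur (log2 difference 1.11 ± 0.21, adjusted p = 0.00167) rose as well. Mmp11, which encodes stromelysin 3 (log2 difference -0.50 ± 0.07, adjusted p = 8.79e-05), and Adamts7 (log2 difference -0.43 ± 0.07, adjusted p = 0.000574) fell.

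Tendon and fibrous tissue genes rose in most cases. Of all 25 listed genes, 19 rose (76.0%) and 1 fell (4.0%), with a median log2 difference of 0.59. The tendon progenitor factor Scx averaged 95.4 ± 13.8 CPM at 48 h and 89.9 ± 11.8 CPM at 24 h and was not called (log2 difference 0.09 ± 0.10, adjusted p = 0.644). Tnmd, which encodes tenomodulin of differentiated tendon, averaged 71.4 ± 11.2 CPM at 48 h and 33.4 ± 3.23 CPM at 24 h (log2 difference 1.10 ± 0.10, adjusted p = 2.43e-06). Thbs4, a thrombospondin gene of tendon and muscle attachments, had 156, 95, 97.5, 60.3 and 64.9 CPM at 48 h, against 26.3, 28.1, 37.3, 21.2 and 26.8 CPM at 24 h (log2 difference 1.76 ± 0.22, adjusted p = 4.79e-05). Here too 48 h replicate 1 was highest, and the groups did not overlap. Cilp, which encodes a matrix protein of cartilage and tendon, averaged 20.4 ± 4.49 CPM at 48 h and 5.51 ± 1.4 CPM at 24 h (log2 difference 1.89 ± 0.18, adjusted p = 4.34e-06). Thbs2 averaged 293 ± 40.3 CPM at 48 h and 138 ± 16 CPM at 24 h (log2 difference 1.09 ± 0.10, adjusted p = 2.11e-06). Eln, the elastin gene, averaged 634 ± 62.7 CPM at 48 h and 353 ± 21.8 CPM at 24 h (log2 difference 0.85 ± 0.07, adjusted p = 1.04e-06). Mkx, a tendon transcription factor gene, was the member called lower (log2 difference -0.20 ± 0.06, adjusted p = 0.0289). That call ended without the libraries with almost no Xist and without 24 h replicate 1 or 4 or 48 h replicate 2, 3 or 4 (for example log2 difference -0.18, adjusted p = 0.0731, without 24 h replicate 1).

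At the joints, the interzone growth factor Gdf5 fell. It had 42.3, 38.3, 37.9, 42.1 and 40.3 CPM at 48 h, against 58.9, 68.8, 58.2, 82.6 and 72.3 CPM at 24 h, with no overlap (log2 difference -0.76 ± 0.09, adjusted p = 2.74e-05). Erg, a transcription factor gene shared by articular cells and endothelium, also fell (log2 difference -0.34 ± 0.07, adjusted p = 0.0027). So did the WNT inhibitor gene Sfrp2 (log2 difference -0.36 ± 0.08, adjusted p = 0.00353) and the sulfatase gene Sulf1 (log2 difference -0.37 ± 0.08, adjusted p = 0.00488). Prg4, which encodes the joint lubricant lubricin, was low and not called (5.41 ± 0.788 CPM at 48 h and 5.95 ± 0.981 CPM at 24 h). Of all 18 listed genes, 4 rose (22.2%) and 6 fell (33.3%). The risers included Cd44, a hyaluronan receptor gene also found on many other cells (log2 difference 1.33 ± 0.16, adjusted p = 2.96e-05), and Trpv4, a mechanically gated channel gene (log2 difference 0.75 ± 0.07, adjusted p = 4.39e-06).

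Patterning factors fell or were not called. Of 47 listed factors outside the HOX clusters, 43 were tested, 23 of these fell (53.5%), and the median log2 difference was -0.30. Msx1, a homeobox gene of undifferentiated mesenchyme, had 31.9, 33.1, 34.2, 32.9 and 34.6 CPM at 48 h, against 53.8, 50.8, 50.0, 53.4 and 70.5 CPM at 24 h (log2 difference -0.74 ± 0.09, adjusted p = 2.93e-05). Lhx9, of the distal mesenchyme, had 25.8, 21.9, 21.3, 26.7 and 25.3 CPM at 48 h, against 43.2, 39.4, 40.1, 42 and 41.3 CPM at 24 h (log2 difference -0.77 ± 0.07, adjusted p = 5.13e-06). In both genes every 48 h library was below every 24 h library. Lmx1b, the dorsal determinant, fell (log2 difference -0.60 ± 0.07, adjusted p = 1.41e-05), and so did Hand2, of the posterior margin (log2 difference -0.60 ± 0.07, adjusted p = 3.09e-05). Gli3, a mediator of hedgehog signalling (log2 difference -0.52 ± 0.11, adjusted p = 0.00314), and the forelimb factor Tbx5 (log2 difference -0.35 ± 0.05, adjusted p = 0.000317) fell too. Hmga2, a chromatin protein gene of growing embryonic tissue, had 75.4, 77.8, 74.8, 72 and 77.5 CPM at 48 h, against 124, 136, 118, 137 and 121 CPM at 24 h (log2 difference -0.75 ± 0.06, adjusted p = 5.67e-07), again without overlap. Shh itself, the posterior organizing signal, was under 0.14 CPM in both groups and was not tested.

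HOX genes fell at the end of the clusters that patterns distal parts of the limb. Of the 24 genes tested of 34 listed, 9 fell (37.5%), which were Hoxa9, Hoxa10, Hoxa11, Hoxa13 and Hoxd9 to Hoxd13, and the others were not called, with a median log2 difference of -0.30. The calls of Hoxa9, Hoxa11 and Hoxd9 ended when any 1 of 4 or more libraries was left out, among them 24 h replicate 2 for each (log2 difference -0.27, adjusted p = 0.0893 for Hoxd9, for example). Hoxd12 had 66.4, 62.3, 63.6, 75.6 and 76.4 CPM at 48 h, against 114, 121, 114, 135 and 135 CPM at 24 h (log2 difference -0.84 ± 0.08, adjusted p = 2.42e-06). Hoxa13, of the hand plate, had 42.4, 40.7, 42.9, 49.7 and 43.3 CPM at 48 h, against 68.7, 69, 68.5, 83.5 and 73.4 CPM at 24 h (log2 difference -0.73 ± 0.07, adjusted p = 5.76e-06). Neither gene overlapped between groups. Hoxd13, Hoxd11 and Hoxd10 fell by smaller amounts (log2 difference -0.52 ± 0.06, adjusted p = 2.41e-05 for Hoxd13, log2 difference -0.56 ± 0.07, adjusted p = 3.17e-05 for Hoxd11 and log2 difference -0.58 ± 0.07, adjusted p = 4.32e-05 for Hoxd10).

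Retinoic acid, which patterns the proximal limb and must be cleared for cartilage to form, had genes on both sides. Of the 17 genes tested of 20 listed, 3 rose (5 in a fit of all 15 control libraries) and 5 fell. Stra6 (ENSMUSG00000032327, chr9:58063788-58153996), the retinol uptake receptor gene, was among the 10 largest falls of the table (log2 difference -1.51 ± 0.12, adjusted p = 8.17e-07). It had 7.2, 6.03, 6.34, 8.65 and 7.71 CPM at 48 h, against 18.7, 17.7, 19.8, 24.8 and 21.3 CPM at 24 h. The groups did not overlap. Aldh1a2, which makes retinoic acid (log2 difference -0.63 ± 0.10, adjusted p = 0.000585), fell, while Rbp4, the secreted retinol carrier, rose (log2 difference 1.12 ± 0.10, adjusted p = 2.4e-06). Cyp26b1, which degrades retinoic acid, averaged 91.9 ± 2.31 CPM at 48 h and 103 ± 10.4 CPM at 24 h and was not called (adjusted p = 0.132).

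Genes of TGF-beta signalling, which drives matrix production, rose in part. Of the 19 genes tested of 20 listed, 10 rose (52.6%) and 3 fell (15.8%; 1 without the 3 libraries with almost no Xist), with a median log2 difference of 0.29. Tgfb1 had 56.2, 61.9, 60.0, 46.9 and 54.8 CPM at 48 h, against 30.9, 23.6, 29.1, 26.4 and 34.7 CPM at 24 h, without overlap (log2 difference 0.95 ± 0.10, adjusted p = 9.47e-06). Ltbp2 (log2 difference 1.08 ± 0.10, adjusted p = 3.37e-06) and Ltbp4 (log2 difference 0.58 ± 0.06, adjusted p = 9.84e-06), of the latent TGF-beta binding protein family, rose. The matricellular genes Ccn3 (log2 difference 1.23 ± 0.17, adjusted p = 0.00012) and Ccn4 (log2 difference 0.66 ± 0.11, adjusted p = 0.000658) rose, and Tgfbi, a matrix gene, fell (log2 difference -0.41 ± 0.08, adjusted p = 0.00218). The activin subunit genes Inhba (log2 difference 0.82 ± 0.18, adjusted p = 0.00425) and Inhbb (log2 difference 0.88 ± 0.13, adjusted p = 0.000221) rose. Bmp2 averaged 39.7 ± 3.1 CPM at 48 h and 37.1 ± 4.71 CPM at 24 h (adjusted p = 0.513). Bmp4 averaged 30.7 ± 4.62 CPM at 48 h and 34.5 ± 3.07 CPM at 24 h (adjusted p = 0.278), and neither was called. Of all 28 listed genes for BMP antagonists, receptors and targets, 2 rose and 3 fell, shares near those of all genes. A single gene fell without 24 h replicate 4 or 48 h replicate 3 or 5, and a single gene rose without 24 h replicate 2 or 48 h replicate 5. All 5 calls ended without the 3 libraries with almost no Xist.

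WNT genes moved in both directions. Of the 47 genes tested of 49 listed, 8 rose and 6 fell, with a median log2 difference of 0.01 (without the 3 libraries with almost no Xist, 5 rose and 3 fell). Sfrp5, a secreted WNT antagonist gene, had 9.08, 14.9, 8.2, 12.7 and 12.7 CPM at 48 h, against 3.95, 3.59, 3.01, 3.94 and 2.58 CPM at 24 h (log2 difference 1.75 ± 0.18, adjusted p = 1e-05), without overlap. Fzd9, a WNT receptor gene that acts in osteoblasts, averaged 113 ± 11.6 CPM at 48 h and 72.7 ± 4.38 CPM at 24 h (log2 difference 0.64 ± 0.07, adjusted p = 2.06e-05). Lgr6, a receptor of the WNT-enhancing R-spondins, rose too (log2 difference 0.79 ± 0.12, adjusted p = 0.000387). Of the 25 genes tested of 28 listed for FGF signalling, 3 rose (1 without the libraries with almost no Xist) and 1 fell. The fall lost its call without these 3 libraries and without 24 h replicate 4 or 48 h replicate 2, 3 or 5, and 2 fell without 48 h replicate 1. Fgfr3, a receptor gene that limits the growth of cartilage, rose (log2 difference 0.36 ± 0.08, adjusted p = 0.00425), and the ectodermal ridge ligand Fgf8 was too low to test. Of the 19 genes tested of 20 listed for Notch signalling, 4 rose (1 without the libraries with almost no Xist) and 2 fell. A single Notch gene fell without 24 h replicate 1, 2 or 4 or 48 h replicate 5, and both falls lost their call without the libraries with almost no Xist. Notch4, an endothelial receptor gene, was the riser with the smallest p (log2 difference 0.39 ± 0.07, adjusted p = 0.00161).

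Growth factor and imprinted genes rose in part. Of all 21 listed genes for the insulin-like growth factor axis, 5 rose and 2 fell. Igf1 rose (log2 difference 0.43 ± 0.09, adjusted p = 0.00244), and Igf2 was not called (771 ± 28.9 CPM at 48 h and 694 ± 62.1 CPM at 24 h; adjusted p = 0.131). Igfbp7, which encodes a secreted binding protein, rose 2.28-fold (log2 difference 1.19 ± 0.07, adjusted p = 6.91e-08). Igf2bp1, an RNA-binding protein gene of fetal growth, fell (log2 difference -0.42 ± 0.05, adjusted p = 3.33e-05). Of all 22 listed genes for imprinted growth control, 9 rose (40.9%) and 1 fell, and with the level of Y-linked transcripts as a covariate 5 rose. Dlk1, a Notch-like membrane protein gene, averaged 1667 ± 194 CPM at 48 h and 1010.0 ± 71.5 CPM at 24 h (log2 difference 0.72 ± 0.08, adjusted p = 1.22e-05). Zim1 averaged 321 ± 37.4 CPM at 48 h and 169.9 ± 16.7 CPM at 24 h (log2 difference 0.92 ± 0.08, adjusted p = 2.67e-06). Nnat, which encodes neuronatin, was the member that fell, with 119.7, 145, 158, 138 and 176 CPM at 48 h, against 241, 268, 254, 279 and 291 CPM at 24 h (log2 difference -0.85 ± 0.09, adjusted p = 9.04e-06), without overlap.

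Contractile genes of skeletal muscle rose, and the determination factor Myod1 was not called. Of the 34 genes tested of 36 listed, 22 rose (64.7%) and the others were not called, with a median log2 difference of 0.43. Without the 3 libraries with almost no Xist, 14 rose. Tnnt3, the fast skeletal troponin T gene, had 164, 226, 213, 152 and 165 CPM at 48 h, against 93.5, 96.1, 97, 102 and 93.5 CPM at 24 h (log2 difference 0.93 ± 0.10, adjusted p = 8.43e-06). The 24 h libraries were nearly level and all 48 h libraries were above them. Acta1, skeletal alpha actin, had 674, 991, 1147, 701 and 989 CPM at 48 h, against 558, 597, 547, 628 and 554 CPM at 24 h (log2 difference 0.64 ± 0.12, adjusted p = 0.00171). Its 48 h replicates 1 and 4 stood only just above the 24 h range. Myh3, embryonic myosin heavy chain, averaged 1410.0 ± 313 CPM at 48 h and 934 ± 65.7 CPM at 24 h (log2 difference 0.59 ± 0.12, adjusted p = 0.00243). Of all 20 listed genes for myogenic progenitors and determination factors, 4 rose and 3 fell. The rises were 2 without 24 h replicate 2 or 5, and 0 without the libraries with almost no Xist. Without 24 h replicate 5, 5 fell. Myod1, a determination factor, averaged 109 ± 19.4 CPM at 48 h and 116 ± 9.34 CPM at 24 h (log2 difference -0.10 ± 0.10, adjusted p = 0.615). Pax7, a progenitor factor, averaged 14.6 ± 1.21 CPM at 48 h and 17.5 ± 2.25 CPM at 24 h (log2 difference -0.27 ± 0.10, adjusted p = 0.0987; log2 difference -0.33, adjusted p = 0.0368, without 24 h replicate 5). Msc, which encodes the repressor musculin, fell (log2 difference -0.69 ± 0.12, adjusted p = 0.00105). Dbx1, a homeobox gene known from the spinal cord and grouped with the muscle genes here, fell at a low level (log2 difference -2.65 ± 0.47, adjusted p = 0.00105). It had 0.355, 0.691, 0.0599, 0.2 and 0.121 CPM at 48 h, against 1.41, 1.33, 2.84, 2.06 and 1.23 CPM at 24 h, without overlap.

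In the surface epithelium, genes of the differentiating layers rose, and the basal keratins Krt5 and Krt14 were not called. Of 31 listed genes of suprabasal and cornified epidermis, 22 could be tested, 17 of these rose (77.3%), the others were not called, and the median log2 difference was 2.10. Without the library with the most haemoglobin of each group (48 h replicate 4 and 24 h replicate 5), 10 rose, and 10 did when genes needed 50 reads rather than 10 to be tested. Of the 25 genes tested of 28 listed for basal epidermis and periderm, 5 rose (20.0%), and the median was 0.21. That count was 8 without 24 h replicate 3 and 3 without 24 h replicate 1 or 2 or 48 h replicate 2 or 3. It was 2 without the library with the most haemoglobin of each group. Krt1 and Krt10 are the keratins of the first suprabasal layer. Krt10 had 64.8, 125, 140.5, 112 and 186 CPM at 48 h, against 18.3, 7.24, 55.3, 20.1 and 9.02 CPM at 24 h (log2 difference 2.52 ± 0.42, adjusted p = 0.000646), without overlap. Krt1 had 92.8, 174, 182, 138 and 226 CPM at 48 h, against 19.6, 3.65, 102, 40.4 and 11.6 CPM at 24 h (log2 difference 2.20 ± 0.55, adjusted p = 0.0112). Here 24 h replicate 3 lay above 48 h replicate 1. The basal keratin gene Krt5 averaged 89.2 ± 23.4 CPM at 48 h and 67.3 ± 34.1 CPM at 24 h (log2 difference 0.41 ± 0.28, adjusted p = 0.382). Krt14 averaged 83 ± 14.2 CPM at 48 h and 72.1 ± 40.1 CPM at 24 h (log2 difference 0.20 ± 0.29, adjusted p = 0.708). Both overlapped between times.

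Genes of the cornified envelope and upper layers were low at 24 h. Dmkn (ENSMUSG00000060962, chr7:30763756-30781063), which encodes dermokine, had 4.36, 25.1, 33.8, 41.5 and 44.3 CPM at 48 h, against 0.943, 0.0553, 11.3, 1.82 and 0.112 CPM at 24 h (log2 difference 3.38 ± 0.75, adjusted p = 0.00535). At 48 h, replicate 1 was far below the other 4 and below 24 h replicate 3, which was far above the other 24 h libraries. Casp14, a protease of cornification, had 1.52, 2.64, 3.29, 3.53 and 4.00 CPM at 48 h, against 0.118, 0, 1.19, 0 and 0.28 CPM at 24 h (log2 difference 3.20 ± 0.63, adjusted p = 0.00246), without overlap. Sprr1a, an envelope precursor gene, had 1.27, 4.46, 2.69, 8.99 and 8.12 CPM at 48 h, against 0.648, 0.166, 1.93, 0.471 and 0.784 CPM at 24 h (log2 difference 2.66 ± 0.55, adjusted p = 0.0032), and 48 h replicate 1 lay below 24 h replicate 3. Its neighbour Sprr1b averaged 3.58 ± 2.33 CPM at 48 h and 0.554 ± 0.469 CPM at 24 h (log2 difference 2.69 ± 0.58, adjusted p = 0.00433). Calm4 (ENSMUSG00000033765, chr13:3837757-3838673), a calmodulin-like gene of skin, was the largest rise among genes with a mean of at least 2 CPM (log2 difference 4.35 ± 0.81, adjusted p = 0.00154). It had 0.913, 5.03, 10.6, 13.3 and 14.8 CPM at 48 h, against 0, 0.111, 1.87, 0 and 0.168 CPM at 24 h, and 48 h replicate 1 was below 24 h replicate 3. Without 24 h replicate 3, the log2 difference of Dmkn became 5.36, that of Krt10 3.21 and that of Krt1 3.12. That of Sprr1a became 3.29, that of Casp14 4.81 and that of Calm4 6.83. The summed level of the basal list was 571 to 654 CPM at 48 h and 334 to 761 CPM at 24 h. That of the differentiating list was 224 to 639 CPM at 48 h and 47.3 to 259 CPM at 24 h. How reads were divided between related Sprr and keratin genes is not given in the sources used here, so their separate values are uncertain.

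The promoters of 3 of these genes are shown because the genes rose and their windows hold an AP-1 motif. Capitals mark TGANTCA (AP-1) and TATAAA (gene's strand) in the 250 bases before the RefSeq start on GRCm38.p6. Sprr1a lies at chr3:92485882-92486131 and Sprr1b at chr3:92438780-92439029, both on the minus strand, and Dmkn at chr7:30763506-30763755 on the plus strand. Sequences are given 5′ to 3′ on the gene's strand.
Sprr1a: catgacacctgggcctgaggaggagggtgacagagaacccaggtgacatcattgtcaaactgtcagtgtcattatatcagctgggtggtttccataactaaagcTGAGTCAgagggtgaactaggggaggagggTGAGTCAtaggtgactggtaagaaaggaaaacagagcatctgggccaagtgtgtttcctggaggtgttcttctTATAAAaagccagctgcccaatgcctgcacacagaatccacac
Sprr1b: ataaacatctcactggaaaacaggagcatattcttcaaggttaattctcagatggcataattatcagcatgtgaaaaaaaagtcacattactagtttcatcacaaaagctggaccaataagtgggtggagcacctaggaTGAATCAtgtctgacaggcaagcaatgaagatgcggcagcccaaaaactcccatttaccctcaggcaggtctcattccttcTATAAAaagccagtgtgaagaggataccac
Dmkn: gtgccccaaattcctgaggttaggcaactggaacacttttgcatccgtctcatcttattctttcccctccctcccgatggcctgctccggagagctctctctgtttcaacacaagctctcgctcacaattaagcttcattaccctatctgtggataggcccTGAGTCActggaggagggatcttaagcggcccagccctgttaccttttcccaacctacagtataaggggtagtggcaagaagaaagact
Of 15 listed differentiation genes with a window, 7 (46.7%) held an AP-1 motif and 7 (46.7%) a TATA box, against 4.1% and 4.07% of 11719 windows of tested genes. In the inflammatory list described below, 3 of 13 windows (23.1%) held an AP-1 motif and 4 (30.8%) a TATA box. Sprr1a holds AP-1 motifs at 146 to 140 and 116 to 110 bases before its start and a TATA box at 43 to 38. Sprr1b holds 1 at 111 to 105, with a TATA box at 30 to 25, and Dmkn holds 1 at 89 to 83.

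**Figure D3:**
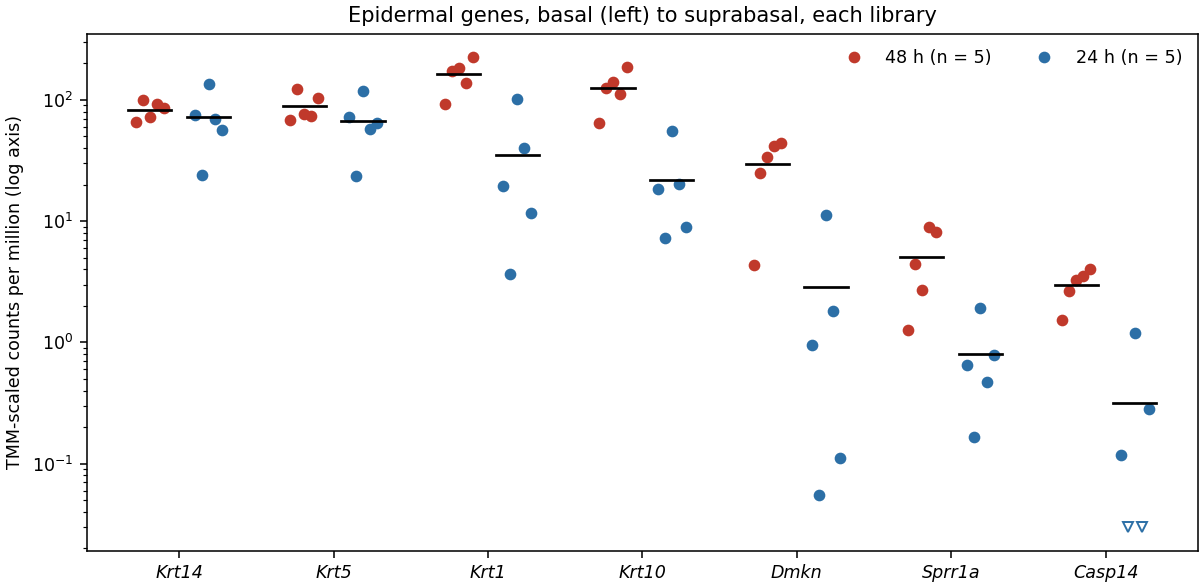
TMM-scaled CPM on a log axis of 7 epidermal genes in each library at 48 h (left of each pair) and 24 h (right), with black bars at the means. Open triangles at the bottom are libraries with 0 reads of Casp14; the basal keratins Krt14 and Krt5 overlap between times, and Krt10 and Casp14 do not.

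Red cell genes fell in part. Of the 14 genes tested of 20 listed for erythroid cells, 7 fell (50.0%) and 2 rose, with a median log2 difference of -0.94. Slc4a1 (ENSMUSG00000006574, chr11:102348824-102366203), the band 3 anion exchanger of the red cell membrane, had 0.761, 0.502, 0.479, 0.932 and 0.566 CPM at 48 h, against 5.07, 9.29, 3.18, 5.88 and 6.22 CPM at 24 h (log2 difference -3.19 ± 0.30, adjusted p = 3.37e-06). Hbb-bs, an adult beta globin gene, had 35.2, 44.9, 29, 40.3 and 31.3 CPM at 48 h, against 114, 87.2, 135, 86.5 and 169 CPM at 24 h (log2 difference -1.71 ± 0.17, adjusted p = 5.71e-06). Both were separated between times, with 24 h replicate 5 highest for Hbb-bs. Alas2, the haem synthesis enzyme of red cells (log2 difference -1.78 ± 0.24, adjusted p = 0.000109), and the embryonic globin gene Hbb-y (log2 difference -1.20 ± 0.17, adjusted p = 0.000206) fell. Reads of the near-identical alpha globins are uncertain. The risers Sptb and Tfrc are also expressed outside red cells (log2 difference 0.51 ± 0.14, adjusted p = 0.0207 for Sptb and log2 difference 0.48 ± 0.09, adjusted p = 0.00233 for Tfrc). The call of Sptb ended without the libraries with almost no Xist and without 24 h replicate 1 or 3 (for example log2 difference 0.49, adjusted p = 0.0516, without 24 h replicate 3).

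Macrophage genes rose in part. Of the 29 genes tested of 31 listed for macrophages and other leukocytes, 15 rose (51.7%) and 2 fell (6.9%), with a median log2 difference of 0.53, but without the 3 libraries with almost no Xist 5 rose and the 2 falls were not called. A single gene fell without 24 h replicate 1, 3, 4 or 5 or 48 h replicate 2, 3 or 5. Lyz2, the lysozyme gene of macrophages, had 83, 79.3, 96.2, 61.2 and 91.2 CPM at 48 h, against 42.8, 37.6, 34.1, 38.5 and 44 CPM at 24 h (log2 difference 1.06 ± 0.11, adjusted p = 5.94e-06), without overlap. Gpnmb, a glycoprotein of phagocytes and osteoclasts, averaged 87.7 ± 16.5 CPM at 48 h and 42.1 ± 5.81 CPM at 24 h (log2 difference 1.06 ± 0.12, adjusted p = 2.28e-05). Ctss, a lysosomal protease gene of the same cells (log2 difference 1.00 ± 0.14, adjusted p = 0.000137), Lgals3 (log2 difference 0.86 ± 0.08, adjusted p = 3.97e-06) and C1qa (log2 difference 0.63 ± 0.11, adjusted p = 0.00091) rose. The defining receptor gene Csf1r averaged 29.2 ± 2.31 CPM at 48 h and 21.2 ± 2.15 CPM at 24 h (log2 difference 0.47 ± 0.09, adjusted p = 0.00137). It was not called without the libraries with almost no Xist (log2 difference 0.34, adjusted p = 0.0572). Summed over the list, these transcripts amounted to 538 to 696 CPM at 48 h and 357 to 434 CPM at 24 h, and of its markers Cd163 and Mcpt4 were too low to test. The part of these cells in the lysosomal and osteoclast values was not tested. Of all 24 listed genes for lysosome and autophagy, 11 rose (45.8%; 4 without the libraries with almost no Xist and 7 without 24 h replicate 1). They included Ctsl (log2 difference 0.43 ± 0.06, adjusted p = 0.000215) and Psap (log2 difference 0.41 ± 0.07, adjusted p = 0.000632).

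Genes of vessels and nerve were called in either direction. Of the 25 genes tested of 26 listed for endothelium, 2 rose and 3 fell, with a median log2 difference of 0.06. Both rises lost their call without the libraries with almost no Xist or without 24 h replicate 1. A single gene rose without 24 h replicate 2, 3 or 5 or 48 h replicate 1, 2, 3 or 4. Pecam1, a pan-endothelial marker, averaged 60.1 ± 6.89 CPM at 48 h and 52.9 ± 5.1 CPM at 24 h (log2 difference 0.18 ± 0.09, adjusted p = 0.174). Aplnr, the apelin receptor gene of sprouting and venous vessels, fell, with 4.41, 6.22, 7.42, 5.86 and 4.81 CPM at 48 h, against 13.7, 10.2, 9.6, 16.9 and 10.4 CPM at 24 h (log2 difference -1.09 ± 0.18, adjusted p = 0.000618), without overlap. Of all 16 listed genes for pericytes and smooth muscle, 6 rose (37.5%) and 1 fell (2 without 48 h replicate 3, and the call ended without the libraries with almost no Xist). Rgs5, a pericyte marker, averaged 13.4 ± 0.864 CPM at 48 h and 7.45 ± 1.09 CPM at 24 h (log2 difference 0.85 ± 0.12, adjusted p = 0.000126). The member that fell was Notch3. The smooth muscle genes Acta2 and Myh11 were not called. Acta2 was called lower in 4 alternatives, among them the fit without 48 h replicate 3 (log2 difference -0.38, adjusted p = 0.0329). Of the 21 genes tested of 23 listed for Schwann cells and melanoblasts, 5 rose and 3 fell (1 without 24 h replicate 1 or 4 or 48 h replicate 2 or 3). Without the libraries with almost no Xist the falls all lost their call. S100b (log2 difference 0.92 ± 0.12, adjusted p = 6.19e-05) and Pmp22 (log2 difference 0.32 ± 0.05, adjusted p = 0.000353), both also made by other limb cells, rose. Of the 12 genes tested of 18 listed for adipogenic cells, 4 rose (2 without the libraries with almost no Xist, or without 24 h replicate 1, 2 or 4 or 48 h replicate 3 or 5) and 1 fell. Lpl, the lipoprotein lipase gene, rose (log2 difference 0.63 ± 0.10, adjusted p = 0.000279), and Zfp423, a preadipocyte factor, fell (log2 difference -0.50 ± 0.06, adjusted p = 3.73e-05). Penk (ENSMUSG00000045573, chr4:4133531-4138819), which encodes the opioid precursor proenkephalin, had one of the 6 smallest p-values of the table (log2 difference 1.21 ± 0.07, adjusted p = 3.7e-08). It had 116, 121, 109, 119.7 and 119 CPM at 48 h, against 53.3, 42.9, 54.5, 47.6 and 54 CPM at 24 h, without overlap.

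Of all 26 listed genes for mitosis and G2/M, 0 passed edgeR's test, and their median log2 difference was 0.07. At an unadjusted p under 0.05, 6 were higher and 0 lower, limma-voom called 0, and DESeq2 called 2 higher. In edgeR 1 was higher without 24 h replicate 5 or 48 h replicate 3 or 5. Top2a, which untangles replicated DNA, had 214, 201, 213, 207 and 201 CPM at 48 h, against 189, 179, 190.0, 194 and 198 CPM at 24 h (log2 difference 0.12 ± 0.05, adjusted p = 0.112). The groups did not overlap, although the gene was not called. Mki67, a marker of cycling cells, averaged 173 ± 9.17 CPM at 48 h and 156 ± 14.9 CPM at 24 h (log2 difference 0.14 ± 0.07, adjusted p = 0.174; log2 difference 0.20, adjusted p = 0.0359, without 24 h replicate 5). Of all 30 listed genes for DNA replication, 1 rose (E2f8, log2 difference 0.31 ± 0.08, adjusted p = 0.0114; log2 difference 0.32, adjusted p = 0.0838, without the libraries with almost no Xist), and 1 fell (Rfc4, log2 difference -0.42 ± 0.10, adjusted p = 0.00986). These counts were 2 higher without 48 h replicate 2 and 2 lower without 24 h replicate 1 or 48 h replicate 3. Of the 16 genes tested of 17 listed for cell cycle inhibitors and cyclins D, 4 rose and 1 fell, a fall not called without the libraries with almost no Xist. Cdkn2c, an inhibitor of cyclin-dependent kinases, averaged 22.4 ± 2.2 CPM at 48 h and 11.2 ± 0.758 CPM at 24 h (log2 difference 1.00 ± 0.09, adjusted p = 2.98e-06). Gas6, which encodes a survival ligand, averaged 74.1 ± 10.5 CPM at 48 h and 32.6 ± 1.75 CPM at 24 h (log2 difference 1.19 ± 0.09, adjusted p = 3.66e-07).

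Targets of p53, the factor that arrests or kills damaged cells, rose in most cases. Of all 28 listed genes, 22 rose (78.6%) and 1 fell, with a median log2 difference of 0.71. Without the 3 libraries with almost no Xist, 15 rose. Cdkn1a, which encodes the cell cycle inhibitor p21, had 185, 232, 289.5, 184 and 242 CPM at 48 h, against 107, 111, 103, 120.4 and 119.5 CPM at 24 h (log2 difference 1.01 ± 0.11, adjusted p = 9.94e-06). Every 48 h library lay above every 24 h library, with replicate 3 highest. Eda2r, a death-domain receptor gene, had 22, 18.1, 27.3, 18.4 and 22.6 CPM at 48 h, against 5.95, 3.87, 4.43, 5.35 and 3.92 CPM at 24 h, a 4.61-fold difference without overlap (log2 difference 2.21 ± 0.15, adjusted p = 1.44e-07). Ccng1, which encodes cyclin G1 (log2 difference 1.14 ± 0.11, adjusted p = 5.44e-06), Phlda3, an inhibitor of AKT (log2 difference 1.26 ± 0.15, adjusted p = 3.12e-05), and the death gene Pmaip1 (log2 difference 1.48 ± 0.19, adjusted p = 7.58e-05) rose. Gdf15, a secreted stress signal, rose at a low level (2.31 ± 0.715 CPM at 48 h and 0.514 ± 0.135 CPM at 24 h; log2 difference 2.15 ± 0.30, adjusted p = 0.00016). Psrc1, a spindle protein gene of the list, also rose (log2 difference 0.83 ± 0.08, adjusted p = 6.58e-06), and Plk2 fell (log2 difference -0.39 ± 0.07, adjusted p = 0.000905).

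Immediate early genes, which respond within minutes to growth factors, stretch or handling, were higher at 48 h in many cases. Of all 25 listed genes, 14 rose (56.0%) and the others were not called, with a median log2 difference of 0.59; without the 3 libraries with almost no Xist, 9 rose. Arc (ENSMUSG00000022602, chr15:74669083-74672570), best known from neurons, had 19.2, 12.6, 23.9, 6.26 and 9.01 CPM at 48 h, against 1.53, 2.21, 2.21, 1.00 and 1.74 CPM at 24 h, an 8.11-fold difference (log2 difference 3.02 ± 0.34, adjusted p = 1.81e-05). Egr3 had 25.7, 10.7, 31.9, 12.4 and 12.3 CPM at 48 h, against 3.48, 5.2, 5.74, 3.77 and 2.63 CPM at 24 h (log2 difference 2.16 ± 0.30, adjusted p = 0.00016). Neither gene overlapped between times, and in both 48 h replicates 1 and 3 were highest. Klf4 was far more even, with 114, 109.5, 109.6, 107 and 106 CPM at 48 h, against 70.7, 69.7, 70.4, 75.2 and 75.4 CPM at 24 h (log2 difference 0.59 ± 0.05, adjusted p = 1.73e-06). Fosl2, an AP-1 subunit gene, averaged 56.9 ± 7.04 CPM at 48 h and 29.4 ± 5.07 CPM at 24 h (log2 difference 0.95 ± 0.11, adjusted p = 2.75e-05). Fos averaged 21.2 ± 13.6 CPM at 48 h and 12.2 ± 6.38 CPM at 24 h and was not called (log2 difference 0.80 ± 0.37, adjusted p = 0.172; log2 difference 1.13, adjusted p = 0.0425, without 24 h replicate 5). Fosb averaged 8.1 ± 6.18 CPM at 48 h and 6.69 ± 3.13 CPM at 24 h and was not called (log2 difference 0.27 ± 0.43, adjusted p = 0.744). Of 19 listed promoters with a window, 2 (10.5%) held a CArG box, the serum response factor motif, against 1.13% of 11719 windows. Arc and Egr3 had no window, and whether the motif goes with a rise was not tested.

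Inflammatory and complement genes rose from low levels. Of 28 listed, 21 could be tested, 9 of these rose (42.9%; 5 when genes needed 50 reads to be tested) and 1 fell in the fit of 10 libraries, a fall called in 2 of the 10 fits without 1 library (24 h replicate 2 or 48 h replicate 2) and not without the libraries with almost no Xist, with a median log2 difference of 0.70. C4b (ENSMUSG00000073418, chr17:34728380-34743882), complement component 4, had 9.33, 5.84, 4.01, 3.4 and 4.2 CPM at 48 h, against 0.884, 0.442, 0.738, 0.176 and 0.224 CPM at 24 h (log2 difference 3.43 ± 0.39, adjusted p = 2.27e-05), with 48 h replicate 1 highest and no overlap. Its reads may be shared with the closely related C4a. Ptgs2, the inducible cyclooxygenase gene, had 18.4, 3.27, 8.38, 3.00 and 2.38 CPM at 48 h, against 1.41, 1.22, 1.82, 0.412 and 0.897 CPM at 24 h (log2 difference 2.62 ± 0.54, adjusted p = 0.00353). Without 48 h replicate 1, by far its highest library, the log2 difference was 1.87. Serpina3n, an acute phase protease inhibitor gene, averaged 5.27 ± 2.15 CPM at 48 h and 0.958 ± 0.278 CPM at 24 h (log2 difference 2.45 ± 0.30, adjusted p = 4.07e-05). The chemokine gene Ccl2 averaged 6.82 ± 2.9 CPM at 48 h and 1.54 ± 0.48 CPM at 24 h (log2 difference 2.14 ± 0.30, adjusted p = 0.000141). The cytokine genes Lif (log2 difference 2.32 ± 0.38, adjusted p = 0.000573) and Il11 (log2 difference 2.38 ± 0.34, adjusted p = 0.000168) rose. Il6 and Il1b had means under 0.12 CPM in both groups and were not tested. Beside these values, the macrophage list was higher at 48 h as given above, and its part in the inflammatory values was not tested. Of the 24 genes tested of 26 listed for interferon-stimulated genes, 7 rose (29.2%; 4 without the libraries with almost no Xist). They included Irf1 (log2 difference 0.63 ± 0.10, adjusted p = 0.000657), Bst2 (log2 difference 0.80 ± 0.14, adjusted p = 0.00107) and the antigen peptide transporter gene Tap1 (log2 difference 0.93 ± 0.17, adjusted p = 0.00115).

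**Figure D4:**
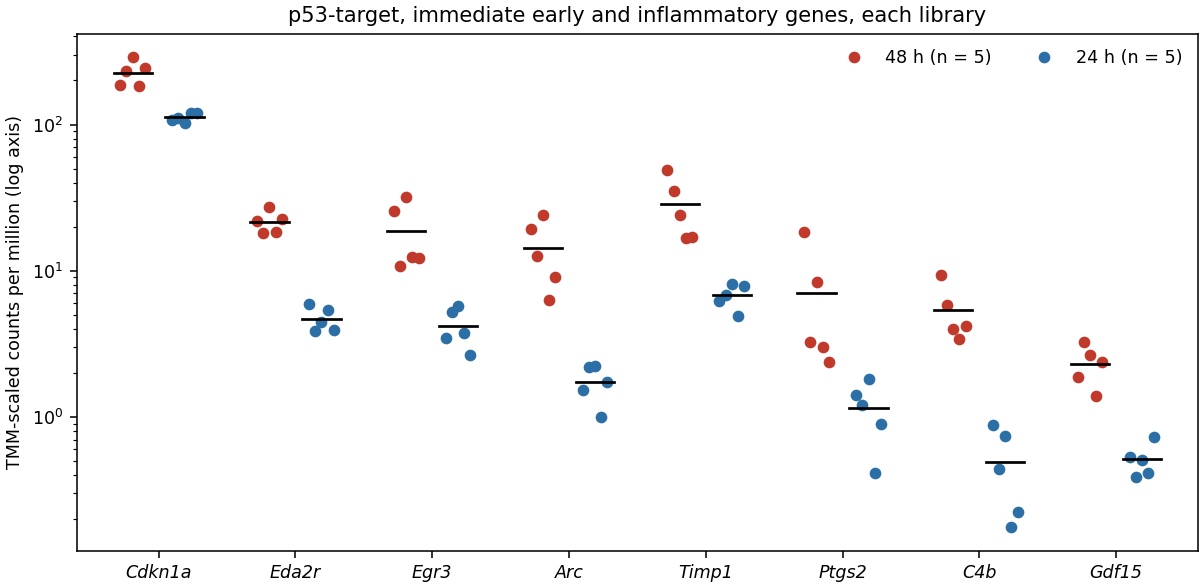
TMM-scaled CPM on a log axis of 8 p53-target, immediate early and inflammatory genes (with the metalloproteinase inhibitor gene Timp1) in each library at 48 h (left of each pair) and 24 h (right), with black bars at the means. Groups do not overlap for any of the 8, and Ptgs2 reaches 18.4 CPM in 48 h replicate 1.

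Stress programmes other than p53 changed unevenly. Of all 33 listed genes for the ATF4 response to amino acid shortage, 16 rose (48.5%) and the others were not called, with a median log2 difference of 0.28; without the 3 libraries with almost no Xist, 8 rose. Nupr1, a stress-induced chromatin protein gene, had 20.2, 24.1, 21.3, 18.2 and 23.1 CPM at 48 h, against 5.66, 6.52, 7.72, 8.59 and 8.91 CPM at 24 h (log2 difference 1.52 ± 0.13, adjusted p = 1.25e-06), with no overlap. Atf4 itself rose 1.24-fold (log2 difference 0.31 ± 0.07, adjusted p = 0.00355). So did the proline synthesis gene Pycr1 (log2 difference 0.50 ± 0.07, adjusted p = 9.57e-05) and the amino acid transporter gene Slc7a1 (log2 difference 0.50 ± 0.07, adjusted p = 0.000113). Trib3 was not called (12.7 ± 1.26 CPM at 48 h and 10.8 ± 2.36 CPM at 24 h; adjusted p = 0.278). Of the 25 genes tested of 27 listed for the endoplasmic reticulum, 6 rose, a count that was 1 without the libraries with almost no Xist and 3 without 24 h replicate 1 or 3 or 48 h replicate 5. The main chaperone gene Hspa5 averaged 814 ± 31.8 CPM at 48 h and 794 ± 41.3 CPM at 24 h (log2 difference 0.04 ± 0.06, adjusted p = 0.727). Creb3l1, a regulator of collagen secretion in osteoblasts, rose (log2 difference 0.61 ± 0.08, adjusted p = 0.000111). Among aryl hydrocarbon receptor and xenobiotic genes, Cyp1b1, a monooxygenase that also metabolizes retinoids and steroids, averaged 46.7 ± 9.39 CPM at 48 h and 21.6 ± 6.46 CPM at 24 h (log2 difference 1.11 ± 0.17, adjusted p = 0.000277). Ahr itself was not called (12.6 ± 0.849 CPM at 48 h and 11.3 ± 1.97 CPM at 24 h; adjusted p = 0.457).

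Few housekeeping genes of energy and protein synthesis were called. Of all 33 listed genes for glycolysis and hypoxia, 0 passed edgeR's test (median log2 difference -0.10), 1 was higher and 2 lower at an unadjusted p under 0.05, and DESeq2 and limma-voom called 0. Without 24 h replicate 5, 3 were called higher, and without 24 h replicate 1 or 2 or 48 h replicate 4, 1 was called lower. Their summed level ranged over 4544 to 6027 CPM at 48 h and 4100.0 to 7139 CPM at 24 h. Of all 13 listed genes for messengers encoded in mitochondria, 0 passed with any of the 3 tools or at an unadjusted p under 0.05 in edgeR. Of all 36 listed genes for nuclear oxidative phosphorylation, 2 rose, of which Cox6a2 is a muscle isoform (log2 difference 0.83 ± 0.13, adjusted p = 0.00038). That count was 4 without 48 h replicate 1, and 1 without the libraries with almost no Xist or without 24 h replicate 1 or 3 or 48 h replicate 2 or 5. Of all 48 listed genes for cytosolic ribosomal proteins, 1 rose. That count was 5 without 48 h replicate 1 and 2 without 48 h replicate 5. The call ended without the libraries with almost no Xist and without 24 h replicate 1, 2 or 3 or 48 h replicate 2, 3 or 4. Apoe, a lipid carrier gene, was the 1 gene that rose of all 17 listed genes for liver X receptor targets and fatty acid synthesis (489 ± 59.7 CPM at 48 h and 233 ± 32.7 CPM at 24 h; log2 difference 1.07 ± 0.10, adjusted p = 2.86e-06), and 2 rose without 48 h replicate 2.

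The 10 largest falls among genes with a mean of at least 2 CPM included enzymes of steroid and xenobiotic metabolism. Hsd3b6, a steroid dehydrogenase gene, had 1.22, 1.32, 2.1, 2.00 and 2.5 CPM at 48 h, against 5.6, 8.02, 4.09, 5.35 and 10.2 CPM at 24 h (log2 difference -1.85 ± 0.27, adjusted p = 0.000189). Hsd11b2, which inactivates glucocorticoids, averaged 3.36 ± 0.79 CPM at 48 h and 8.86 ± 1.1 CPM at 24 h (log2 difference -1.40 ± 0.17, adjusted p = 5.14e-05). Gstm7, a glutathione transferase gene whose reads may be shared with its relatives, had 3.6, 3.2, 3.95, 4.33 and 3.63 CPM at 48 h, against 11.9, 9.51, 12, 10.7 and 11.6 CPM at 24 h (log2 difference -1.57 ± 0.13, adjusted p = 8e-07). L1td1, an RNA-binding protein gene of embryonic cells, averaged 1.31 ± 0.144 CPM at 48 h and 3.77 ± 1.07 CPM at 24 h (log2 difference -1.52 ± 0.23, adjusted p = 0.000254). Cer1, which encodes a secreted BMP and nodal antagonist, averaged 3.16 ± 0.804 CPM at 48 h and 8.19 ± 0.926 CPM at 24 h (log2 difference -1.37 ± 0.18, adjusted p = 8.32e-05). In all 5 genes each 48 h library was below each 24 h library.

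The second day was set against the first with the 5 DMSO libraries of 3 h. A fit of 15 libraries tested whether the change over 24 h (24 h to 48 h) differs from the change over the preceding 21 h (3 h to 24 h). The intervals differ in length and share the 24 h libraries, so a high or low 24 h value moves both changes in opposite directions. The CPM and log2 differences of this fit differ slightly from those above. It was not recomputed without the libraries with almost no Xist. Among the 3 h libraries, replicate 3 had 0.105 CPM of Y-linked transcripts, where the others had 76.7 to 156 CPM. The part of sex in these differences was not tested. Of 17103 genes tested, the changes differed for 1883 (11.0%), with a second-day change above the first-day change for 949 (5.55%) and below it for 934 (5.46%). The median change over all genes was 0.01 on the second day and -0.01 on the first.

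Of 26 listed genes of mitosis and G2/M, 26 passed this test with a second-day change above the first-day change, and the median log2 change was 0.09 on the second day and -1.27 on the first. Of 30 replication genes, 25 did (medians -0.03 on the second day and -0.59 on the first). Top2a had 454 ± 25.1 CPM at 3 h, 191 ± 7.9 CPM at 24 h and 211 ± 5.24 CPM at 48 h (second minus first 1.39 ± 0.09, adjusted p = 9.89e-09). Psrc1 had 48.5 ± 4.04 CPM at 3 h, 22.2 ± 2.65 CPM at 24 h and 40.0 ± 2.66 CPM at 48 h (second minus first 1.98 ± 0.15, adjusted p = 4.22e-08). The spindle gene Tpx2 had 169.6 ± 11.7 CPM at 3 h, 69.1 ± 2.73 CPM at 24 h and 73.8 ± 2.98 CPM at 48 h (second minus first 1.39 ± 0.10, adjusted p = 2.67e-08). Nusap1, another spindle gene, had 118 ± 4.66 CPM at 3 h, 52.3 ± 3.77 CPM at 24 h and 58.8 ± 3.13 CPM at 48 h (second minus first 1.34 ± 0.10, adjusted p = 5.94e-08). Levels of Top2a, Tpx2 and Nusap1 lay far lower at 24 h than at 3 h. Between 48 h and 24 h, Tpx2 was not called in any fit run, Nusap1 was called in the fit of 15 libraries (log2 difference 0.17, adjusted p = 0.049) and Top2a by DESeq2 (log2 difference 0.13, adjusted p = 0.0499), while neither passed edgeR's test on 10 libraries. Psrc1 rose on the second day.

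Cartilage and contractile muscle genes often differed with the opposite sign. Of 27 cartilage genes, 22 had a second-day change below the first-day change by this test. The median log2 change was 0.65 on the second day and 1.46 on the first. Of 34 contractile genes, 24 did (medians 0.45 on the second day and 1.43 on the first). Ibsp had 0.857 ± 0.545 CPM at 3 h, 119 ± 27.3 CPM at 24 h and 729 ± 70.7 CPM at 48 h (second minus first -4.49 ± 0.32, adjusted p = 2.67e-08). Gpnmb had 1.43 ± 0.569 CPM at 3 h, 42.4 ± 5.79 CPM at 24 h and 89.5 ± 17.5 CPM at 48 h (second minus first -3.79 ± 0.27, adjusted p = 2.67e-08). Both genes were low at 3 h, and these differences hold on the log2 scale, not for the gain in CPM. Collagens outside cartilage leaned the other way, with 11 of 28 above and 3 below (medians 0.48 on the second day and 0.40 on the first). Osteoblast genes were divided, with 6 of 24 above and 4 below (medians 0.97 on the second day and 0.75 on the first). Hspb3, a small heat shock protein gene of muscle, had 0.816 ± 0.273 CPM at 3 h, 5.44 ± 0.93 CPM at 24 h and 4.94 ± 1.1 CPM at 48 h (second minus first -2.87 ± 0.36, adjusted p = 1.4e-05). Slc9a2, a sodium and proton exchanger gene, had 1.81 ± 0.752 CPM at 3 h, 7.28 ± 2.43 CPM at 24 h and 5.05 ± 0.543 CPM at 48 h (second minus first -2.52 ± 0.40, adjusted p = 0.000188).

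Some stress lists and the basal epidermal list held many genes with a second-day change above the first-day change, and other lists of these kinds held fewer. Over all genes tested, 5.55% were above and 5.46% below. Above refers to the signed log2 change, so a first-day fall that slowed or stopped also counts. Of 28 p53 targets, 14 had a second-day change above the first-day change (medians 0.73 on the second day and -0.09 on the first), as had 19 of 33 ATF4 genes (medians 0.30 on the second day and -0.37 on the first). So had 10 of 25 immediate early genes (medians 0.61 on the second day and -0.25 on the first) and 11 of 25 basal epidermal genes (medians 0.23 on the second day and -1.13 on the first). Of 25 endoplasmic reticulum genes, 4 had a second-day change below the first-day change and the others did not pass. Of 19 NRF2 genes of the oxidative stress response, 3 passed with a second-day change above the first-day change and 0 below it. Of 18 heat shock genes, 3 passed above and 1 below. Among differentiating epidermal genes, 1 of 22 passed above and 0 below (medians 2.13 on the second day and 0.60 on the first). Of patterning factors, 12 of 43 had a second-day change above the first-day change. The median log2 change of that list was -0.28 on the second day and -0.66 on the first. Arc had 3.13 ± 0.883 CPM at 3 h, 1.75 ± 0.508 CPM at 24 h and 14.5 ± 7.41 CPM at 48 h (second minus first 3.87 ± 0.59, adjusted p = 0.000129). Ovol1, a factor of epidermal differentiation, had 11.2 ± 3.96 CPM at 3 h, 1.29 ± 0.453 CPM at 24 h and 2.04 ± 0.855 CPM at 48 h (second minus first 3.75 ± 0.58, adjusted p = 0.000161). Il1rl1, the interleukin 33 receptor gene, had 1.98 ± 0.503 CPM at 3 h, 1.13 ± 1.08 CPM at 24 h and 6.68 ± 2.96 CPM at 48 h (second minus first 3.37 ± 0.76, adjusted p = 0.00526; 4.91 without 24 h replicate 3, its highest 24 h library). Dlx2, a homeobox gene of the distal limb, had 5.76 ± 0.729 CPM at 3 h, 0.464 ± 0.274 CPM at 24 h and 0.406 ± 0.36 CPM at 48 h (second minus first 3.47 ± 0.87, adjusted p = 0.011).

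**Figure D5:**
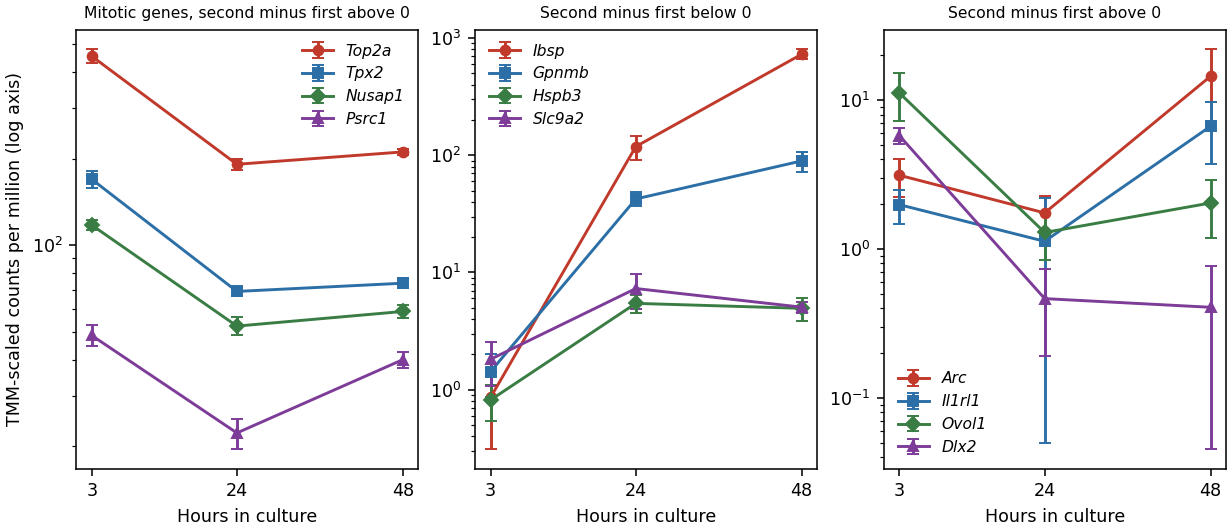
Mean TMM-scaled CPM (log axis) with SD of the 5 DMSO libraries at 3, 24 and 48 h in culture for 12 genes whose second-day change differed from their first-day change. Mitotic genes lie lower at 24 h and 48 h than at 3 h, and Arc and Il1rl1 are highest at 48 h. On this log scale Ibsp and Gpnmb, both low at 3 h, climb more steeply before 24 h than after.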

How the data were processed

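Poly-A selected messenger RNA of pooled forelimbs was sequenced in 5 DMSO libraries per time. Per the submitters' processing notes, CASAVA 1.8, STAR 2.5, HTSeq 0.6.1, DESeq2 and build mm10 were used, with no roles or strand setting given in the sources used here. The authors deposited read counts and FPKM values per gene and library. Genes of 2 tables were joined by identifier. Counts were tested with edgeR 4.0.16 (quasi-likelihood F-test, TMM scaling, filterByExpr with a minimum count of 10) on the 10 libraries, with Benjamini-Hochberg adjustment over all tested genes and a threshold of 0.05. A fit of 15 libraries tested second-day minus first-day change. Alternatives used DESeq2 1.42.0, limma 3.58.1 voom, other scalings and filters, covariates and left-out libraries. CPM are scaled by TMM factors, and intervals cover counting error and library spread only. Named genes were drawn from 303 picked by a rule, not all of which are printed, besides members given as examples. The rule took the 10 largest rises and falls at a mean of at least 2 CPM and the 6 smallest p-values. Per list it took the first 2 members, up to 4 smallest p-values and up to 3 largest changes. The gene lists and named members were chosen with earlier results of these data known. The fits were tested on simulated counts. Promoters are RefSeq windows on GRCm38.p6, matched by symbol. Replicate numbers were not used as pairs, since the labels do not say whether they mark a shared litter or day and deviations of same-numbered libraries correlated at -0.02 to 0.22, near 0 for 3 of 5 numbers.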

Additional observations from a re-analysis of the deposited data

Results flagged for a closer look

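In groups of 5 libraries, 1 library stood apart from the other 4 by Dixon's ratio (gap over range above 0.71, which chance gives in about 1 group in 20) for a number of the levels given above. They were picked from many groups, among which chance alone gives a number of such values. Whether they exceed that number was not tested. In 24 h replicate 3 the highest value stood apart for Calm4 (1.87 CPM), Casp14 (1.19 CPM), Dmkn (11.3 CPM), Krt10 (55.3 CPM), Cyp1b1 (32.6 CPM) and Il1rl1 (3.01 CPM). In 24 h replicate 5 it stood apart for Msx1 (70.5 CPM, highest), Col22a1 (12.4 CPM, lowest) and the haemoglobin share (0.251% of reads, highest). In 48 h replicate 3 it did for Col1a2 (5930.0 CPM), Fos (44.8 CPM) and Pax7 (16.7 CPM). Ucma was highest in 48 h replicate 5 (6.75 CPM) and in 24 h replicate 2 (2.04 CPM), L1td1 in 24 h replicate 4 (5.59 CPM), and Nusap1 was lowest in 48 h replicate 3 (52.4 CPM).

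The second-day change differed from the first-day change for 1883 genes. Among those named by rule, the difference was above 0 for Top2a (1.39), Tpx2 (1.39), Psrc1 (1.98), Nusap1 (1.34), Arc (3.87), Ovol1 (3.75), Dlx2 (3.47) and Il1rl1 (3.37) and below 0 for Gpnmb (-3.79), Ibsp (-4.49), Hspb3 (-2.87) and Slc9a2 (-2.52), all on the log2 scale.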

How the results depend on the processing

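The 2677 calls between 48 h and 24 h were 2659 with DESeq2-style size factors in edgeR, 3022 with DESeq2, 2680 with limma-voom, 2437 without a filter on low counts, 2570 with a minimum count of 50, 2987 in a fit of all 15 control libraries, 2148 with Y-linked level as a covariate and 2552 without the library of each group with the most haemoglobin. Without the 3 libraries with almost no Xist there were 1247 calls, 820 of them higher and 427 lower, with 38 lower by at least 2-fold. That fit has fewer libraries, and the part of sex in the difference was not tested. A minimum count of 50, which tests fewer genes, left 168 genes higher and 26 lower by at least 2-fold. Leaving out 1 library gave 2099 to 2675 calls, 1293 to 1599 higher and 806 to 1076 lower, with 272 to 342 higher and 49 to 69 lower by at least 2-fold. For second-day minus first-day change it gave 1369 to 1911 calls, 608 to 1003 above 0 (608 without 24 h replicate 2) and 761 to 1059 below 0; that count was 2248 with DESeq2, 1902 with DESeq2-style size factors, 1753 without a filter and 1342 with the Y-linked covariate. The haemoglobin difference ranged from -0.102 to -0.0691 percentage points, the mitochondrial one from -0.0847 to -0.0151, and Y-linked transcripts from -91.7 to -41.6 CPM. A fit blocked on the replicate number called 2775 genes, 2497 of them shared with the fit without it, and 1838 for second-day minus first-day change; 2 of 5 libraries correlated best with their own number. Of 167 genes named above as called, 159 kept the call under each of the 20 alternatives in which they were tested, and 0 of the named genes reversed. These counts cover only the genes printed here and do not measure the stability of all 303 genes picked by the rule. Among picked genes that are not described above, Angpt2 lost its call in 12 alternatives and Greb1 in 13. A lower count in a fit of fewer libraries or genes says nothing of the size of effects.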
